A study of Mus musculus with 8 samples.

Results

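Ribosome biogenesis factors were examined in the livers of mice heterozygous for the Rragc S74N allele. The set held 42 genes, and all 42 were among the 14506 genes of the deposited table. Ltv1 was chosen by its lower level in the mutant livers, and the other 41 were chosen as known nucleolar or pre-ribosome factors. The values of Ltv1 are therefore given as a description with no test.

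Rragc encodes RagC, a GTPase that relays nutrient signals to the kinase mTORC1, and S74N is an activating serine-to-asparagine substitution. The 8 livers came from 4 Rragc +/+ and 4 Rragc S74N/+ mice on a C57BL/6 background, 1 library each. Of the Rragc +/+ mice, 3 were 3 months old (replicates 1 to 3) and 1 was 2.5 months old (replicate 4). Of the Rragc S74N/+ mice, 2 were 3 months old (replicates 1 and 2), 1 was 2.5 months old (replicate 3) and 1 was 2 months old (replicate 4). The allele was knocked in with Cas9 and a repair oligonucleotide that also carried silent changes, and it was present in every tissue. Age was thus not balanced between the genotypes, and the only mouse of 2 months was a mutant. Whole liver was used, so a lower read count from fewer cells of a type and from less RNA per cell cannot be told apart.

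Ribosomes are built in the nucleolus. RNA polymerase I transcribes a long precursor of the rRNAs, small nucleolar ribonucleoproteins (snoRNPs) modify it, and a large early complex, the small subunit processome, folds and cuts the part that becomes the small subunit. Separate factors then carry the pre-40S and pre-60S particles to maturity and are released before translation. mTORC1 is known to raise rRNA synthesis and ribosome assembly in growing cells, and liver is a tissue with a high demand for ribosomes.

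RNA was read from the 3′ ends of transcripts, so each read stands for a transcript end. The libraries held 4313076 to 6632108 reads in listed genes. Levels are given as the authors' normalized read counts, and differences as Rragc S74N/+ minus Rragc +/+ on the log2(normalized count + 1) scale with the standard error of the limma fit. Of the 42 factors, 41 had a mean of at least 10 and were tested among 11174 genes. Nob1, the endonuclease that makes the end of the small subunit rRNA, was below that minimum, at 3.27 ± 0.924 (SD, n = 4) in Rragc +/+ and 7.0 ± 5.40 in Rragc S74N/+ livers. The mean level of the tested members ran from 13.04 for Gar1 to 827 for Nop10. Their spread was mostly larger than that of read counting. The SD among livers exceeded 1.5 times the SD expected from counting alone for 28 of 41 members in Rragc +/+ and for 32 of 41 in Rragc S74N/+ livers.

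Promoters were searched for the E-box CACGTG, the site of Myc and of MiT/TFE factors, since TFEB and TFE3 are targets of RagC signalling. RefSeq promoters (GRCm38.p6, 250 bases before to 50 after the start) were matched for 36 of the 42 members. The E-box, a palindrome that reads the same on both strands, stood in 7 of them (19.4%), against 2187 of 27025 promoters of all genes (8.09%) and 1003 of 8454 promoters of tested genes (11.9%). The longer CLEAR motif of MiT/TFE factors, a palindrome that contains the E-box and was also searched on both strands, stood in 0 of the 36, in 100 of all promoters (0.37%) and in 69 of those of tested genes (0.816%). The windows around the 7 matches are shown because Ltv1 is among them, with the E-box in capitals and the gene's own strand read 5′ to 3′. They lie at chr10:13193092-13193121 on the minus strand (Ltv1), chr6:125131811-125131840 on the plus strand (Nop2), chr11:3963965-3963994 on the plus strand (Pes1), chr11:17211540-17211564 on the minus strand (Pno1), chr11:74898092-74898121 on the plus strand (Tsr1), chr11:93885769-93885798 on the minus strand (Utp18) and chr17:71616220-71616249 on the plus strand (Wdr43).
Ltv1: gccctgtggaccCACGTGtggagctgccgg
Nop2: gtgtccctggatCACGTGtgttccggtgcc
Pes1: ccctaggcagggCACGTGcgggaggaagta
Pno1: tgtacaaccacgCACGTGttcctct
Tsr1: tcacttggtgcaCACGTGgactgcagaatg
Utp18: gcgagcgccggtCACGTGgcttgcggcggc
Wdr43: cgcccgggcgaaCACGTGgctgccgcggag

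The first base of the match lay 29 bases after the start in Ltv1, 3 after it in Pes1, 38 in Pno1, 25 in Tsr1 and 18 in Wdr43, and 60 and 20 bases before it in Nop2 and Utp18. A match is a description of the letters and not of binding. Of the 6 members other than Ltv1 that held the E-box, 4 had a difference below 0 and 2 above it, with a median of -0.15, so they stood closer to 0 than the median of -0.28 over all other tested members. Pno1 and Wdr43 were at -0.29 (SE 0.35) and -0.30 (SE 0.33), and Nop2 and Tsr1 at 0.18 (SE 0.32) and 0.18 (SE 0.36). None of these 6 passed the test across all genes.

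Ltv1 is a pre-40S assembly factor that has to leave the particle before the small subunit matures. The gene lies on chr10:13178140-13193168, minus strand (GRCm38), and overlaps no other annotated gene. Its normalized read counts were 65.3, 49.6, 55.2 and 73.8 in the Rragc +/+ livers, and 20.2, 23.1, 29.0 and 22.0 in the mutant livers, each in the order of their replicate numbers. Every mutant liver was below every Rragc +/+ liver. The group means were 60.9 ± 10.8 and 23.6 ± 3.79 (SD, n = 4 each), a ratio of 0.387, and the log2 difference was -1.33 (SE 0.29). These values rested on 22 to 79 reads per liver, and counting alone would give an SD of 7.97 and 4.73 in the 2 groups. The difference was -1.34 among the 3-month-old mice and -1.32 between the 2 mice of 2.5 months, the latter from 1 liver of each genotype.

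**Figure D1:**
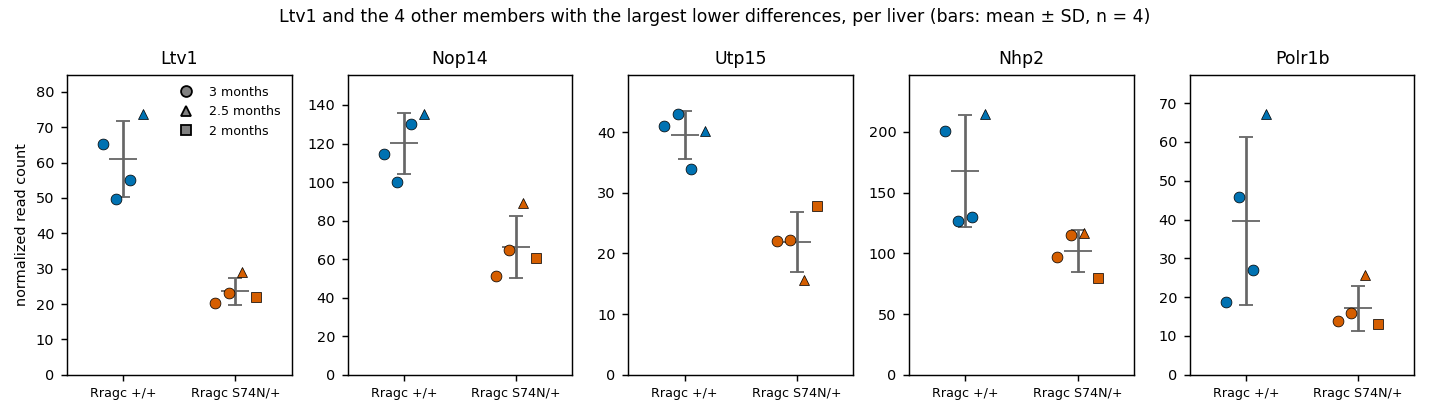
Normalized read counts per liver (y axes, from 0) of Ltv1, Nop14, Utp15, Nhp2 and Polr1b by genotype, with symbols for age and bars for the mean ± SD of 4 livers. The groups do not overlap for Ltv1, Nop14, Utp15 and Nhp2, and they overlap for Polr1b, where Rragc +/+ livers ran from 18.6 to 67.3.

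Of the 40 other tested members, none had a limma adjusted p under 0.05 in either direction, against 0.00895% of all tested genes lower and 0% higher. That 1 gene was Gpx3, which is not a ribosome factor and is described with the kidney genes further on. The smallest adjusted p among the 40 was 0.846. Before adjustment, 4 of the 40 (10%) had a limma p under 0.05 with a lower level and 0 with a higher level, where the shares of all tested genes were 2.8% lower and 2.37% higher. In 3 of the 40 (7.5%) every mutant liver was below every Rragc +/+ liver and in 0 the reverse held, against 1.64% and 1.3% of all tested genes. With 4 livers a group the smallest two-sided exact permutation p is 0.0286, so no single gene could pass an adjustment over 11174 genes by that test.

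The 4 members with an unadjusted limma p under 0.05 were Nop14 and Utp15 of the small subunit processome, Nhp2 of the box H/ACA snoRNPs and Polr1b of RNA polymerase I. Nop14, a small subunit processome protein needed for the maturation of 18S rRNA, was at 114.7, 100.1, 130.1 and 135.5 normalized counts in Rragc +/+ livers. It was at 51.4, 64.9, 89.2 and 60.4 in Rragc S74N/+ livers, with no overlap. Its difference was -0.86 (SE 0.25, limma adjusted p = 0.846, exact permutation p = 0.0286). Like Ltv1, it was highest at 2.5 months within each genotype.

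Utp15, a subunit of the UTP-A complex that joins the nascent precursor first, was at 41.02, 43.0, 34.0 and 40.2 normalized counts in Rragc +/+ livers. The mutant livers were at 22.0, 22.2, 15.6 and 27.7, again all lower. Its difference was -0.85 (SE 0.32, limma adjusted p = 0.846, exact permutation p = 0.0286) on 14 to 46 reads per liver.

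Nhp2, a core protein of the box H/ACA snoRNPs that also sits in telomerase, was at 200.4, 126.3, 130.1 and 214.9 normalized counts in Rragc +/+ livers. It was at 97.3, 114.6, 117.0 and 79.9 in the mutant livers, so the groups were separate but close, 117.0 against 126.3 at the nearest. Its difference was -0.69 (SE 0.25, limma adjusted p = 0.846, exact permutation p = 0.0286).

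Polr1b, the second-largest subunit of RNA polymerase I, had the lowest difference of the 40, at -1.05 (SE 0.44, limma adjusted p = 0.846, exact permutation p = 0.0571). Its normalized counts were 18.6, 45.8, 26.9 and 67.3 in Rragc +/+ livers. They were 13.8, 15.998, 25.6 and 13.1 in Rragc S74N/+ livers. The groups overlapped, since Rragc +/+ replicate 1 was below mutant replicate 3, and the Rragc +/+ livers spread over more than the difference of the means. Part of the last 300 bases of the Polr1b transcript matches transcripts of 52 other annotated genes. Its reads are therefore uncertain where multiple alignments were allowed, and their assignment was not examined.

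Small differences in the same direction were more frequent than in all genes. The fitted difference was below 0 in 29 of the 40 (72.5%) and above 0 in 11, against 48.7% and 51.3% of all tested genes. It was -0.25 or lower in 21 of the 40 (52.5%) and 0.25 or higher in 3, against 23.7% and 27.5% of all tested genes. Gar1, which reached the minimum mean only through its higher mutant level, is counted among the 11 and the 3. The median was -0.28, with quartiles of -0.39 and 0.01, where the median of all tested genes was 0.01 with quartiles of -0.23 and 0.28. The list was drawn up with results of these livers known and its genes share livers, so these counts and medians carry no test. The median depended on single livers and on the fit. It was -0.17 without replicate 1 and -0.16 without replicate 4 of Rragc S74N/+. Without replicate 1 of Rragc +/+ it was -0.21, and likewise -0.21 without replicate 2. It was -0.19 with edgeR and with DESeq2, and -0.16 with age as a factor in the fit.

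**Figure D2:**
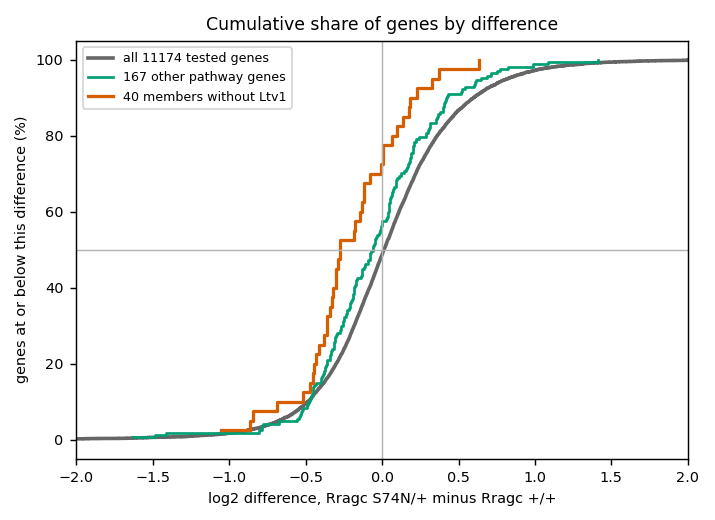
Cumulative share of genes (y axis, percent) at or below a log2 difference between genotypes (x axis) for the 40 members other than Ltv1, 167 other genes of ribosome assembly and all 11174 tested genes. The line of the members crosses 50% at -0.28, that of the other assembly genes at -0.06 and that of all genes at 0.01.

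The box C/D snoRNPs place methyl groups on rRNA. Nop56 and Nop58, their paired scaffold proteins, were at -0.38 (SE 0.27) and -0.36 (SE 0.24). Nop56 averaged 93.4 ± 19.4 and 72.1 ± 18.9 normalized counts, and Nop58 averaged 92.7 ± 12.5 and 72.5 ± 14.0, in Rragc +/+ and Rragc S74N/+ livers (SD, n = 4). Fbl, the methyltransferase fibrillarin and the most-read of the 3, was at 151, 289, 128.7 and 118.7 normalized counts in Rragc +/+ livers and at 157.9, 163.5, 142.6 and 184.4 in mutant livers. Rragc +/+ replicate 2 was far above all the others, and the difference was 0.01 (SE 0.28), with a sign that changed between settings.

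The box H/ACA snoRNPs convert uridine to pseudouridine. Besides Nhp2, their catalytic subunit Dkc1 (dyskerin) was at -0.41 (SE 0.33), with 389 ± 110 normalized counts in Rragc +/+ and 313 ± 177 in Rragc S74N/+ livers. Nop10, the smallest core protein, went the other way at 0.23 (SE 0.24). Its normalized counts were 675.9, 1076.4, 608.3 and 696.0 in Rragc +/+ livers. They were 1090.7, 819.4, 646.3 and 1005.0 in mutant livers, which overlap the former. Gar1 was read too rarely to compare, with 0 to 40 reads per liver and a difference of 0.64 (SE 1.19). Leaving Gar1 aside, the core proteins of this particle still did not share a sign. The median of all 4, with Gar1 counted, was -0.09.

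Among the abundant nucleolar phosphoproteins, Ncl (nucleolin) was at 573.3, 359.1, 660.6 and 719.4 normalized counts in Rragc +/+ and at 354.4, 468.4, 813.5 and 584.1 in Rragc S74N/+ livers. The highest and the lowest liver were both mutant, and the difference was -0.08 (SE 0.28). Npm1 (nucleophosmin) was at 0.10 (SE 0.23). Nolc1, a chaperone of snoRNPs, was at -0.45 (SE 0.30), with 88.3 ± 26.5 and 63.6 ± 16.5 normalized counts in the 2 genotypes.

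The small subunit processome and pre-40S factors other than Ltv1 had 13 tested members, of which 10 were below 0 and 3 above it, with a median of -0.29. Wdr43, a UTP-A protein and the most-read of them, was at 541.6, 384.4, 333.8 and 562.4 normalized counts in Rragc +/+ livers. It ranged more widely among the mutants, at 269.0, 456.8, 657.5 and 209.7, and its difference was -0.30 (SE 0.33). Bysl, a pre-40S factor, was at -0.52 (SE 0.28), with 77.5 ± 21.2 and 53.2 ± 10.5 normalized counts. Rrp12, which helps pre-40S particles out of the nucleus, was at -0.47 (SE 0.58). Rrp9 of the U3 snoRNP and Utp3 were at -0.32 (SE 0.39) and -0.28 (SE 0.26).

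Other factors of pre-40S particles, beside Bysl and Rrp12, lay on both sides of 0. Tsr1, a GTPase-like protein that blocks premature binding, was at 0.18 (SE 0.36), and the kinases Riok1 and Riok2 were at -0.15 (SE 0.29) and 0.01 (SE 0.29). Pno1, the partner of Nob1, was at -0.29 (SE 0.35), with 62.3 ± 12.3 and 55.1 ± 27.9 normalized counts, and Nob1 itself was not tested. Nat10, which acetylates 18S rRNA, was at 0.07 (SE 0.33). Utp18, of the UTP-B complex, was at -0.18 (SE 0.59). Whether Ltv1 differed from each of these was not tested, because Ltv1 was chosen on this difference.

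**Figure D3:**
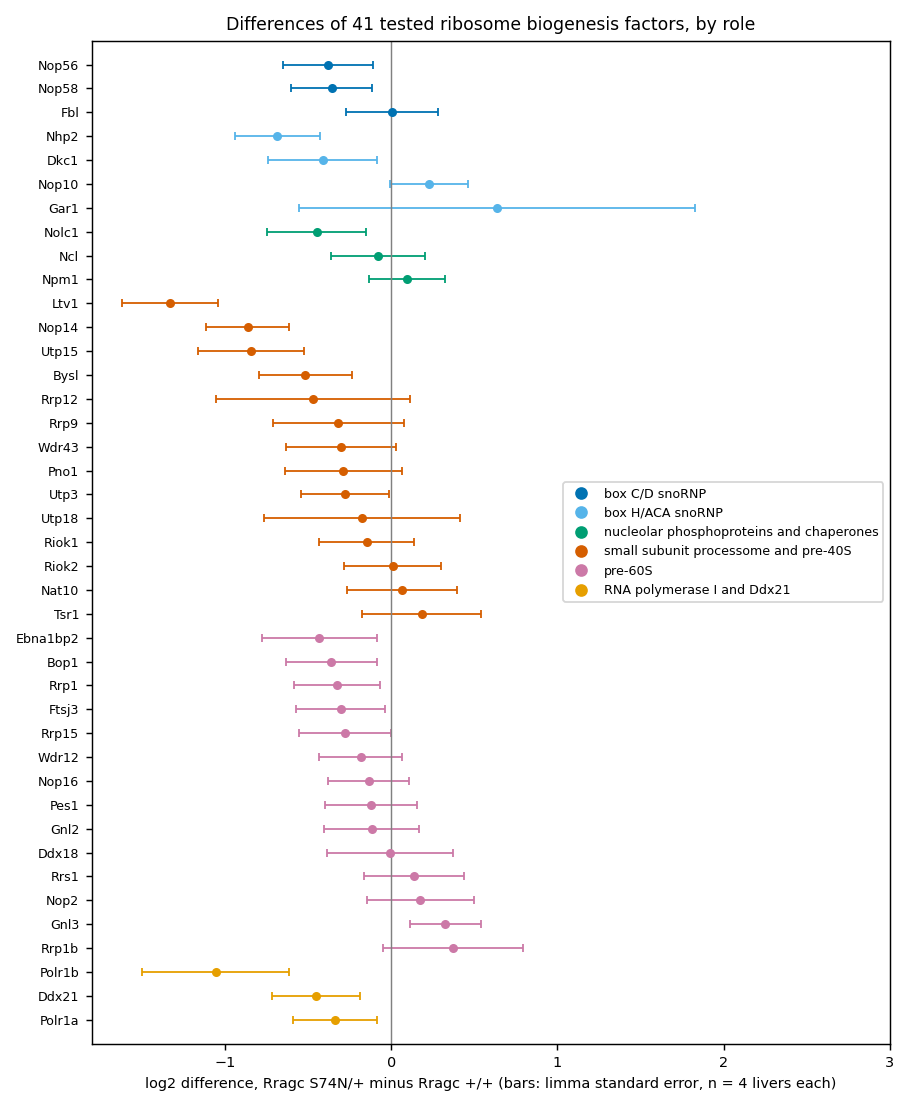
Log2 difference between genotypes (x axis, Rragc S74N/+ minus Rragc +/+) of the 41 tested members, coloured by role, with bars for the limma standard error (n = 4 livers each). Ltv1 stands lowest at -1.33, Polr1b, Nop14, Utp15 and Nhp2 follow from -1.05 to -0.69, and 11 of the 41 lie above 0.

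The pre-60S factors had 14 tested members, 10 below 0 and 4 above it, with a median of -0.13 and none with an unadjusted limma p under 0.05. Ftsj3, an rRNA methyltransferase and the most-read of them, was at 263.8, 210.4, 223.5 and 325.1 normalized counts in Rragc +/+ livers and at 168.9, 154.6, 341.0 and 194.2 in mutant livers. Mutant replicate 3 was the highest of all 8, and the difference was -0.30 (SE 0.27). The PeBoW complex, made of Pes1, Bop1 and Wdr12, matures the large subunit rRNAs, and its members were at -0.12 (SE 0.28), -0.36 (SE 0.27) and -0.18 (SE 0.25). Ebna1bp2 was at -0.43 (SE 0.35) and Rrp1 and Rrp15 at -0.33 (SE 0.26) and -0.28 (SE 0.28). Nop16, Gnl2 and the helicase Ddx18 were at -0.13 (SE 0.24), -0.12 (SE 0.28) and -0.01 (SE 0.38).

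On the higher side, Gnl3 (nucleostemin), a nucleolar GTPase known from proliferating cells, averaged 110 ± 9.37 normalized counts in Rragc +/+ and 139 ± 20.3 in Rragc S74N/+ livers. Its difference was 0.33 (SE 0.22, limma adjusted p = 0.846, exact permutation p = 0.0857). Rrp1b was at 0.37 (SE 0.42), Nop2, a methyltransferase of 28S rRNA, at 0.18 (SE 0.32) and Rrs1, which helps the 5S rRNA particle join, at 0.14 (SE 0.30). The list of markers of proliferating cells had a mean log2 level of 4.02 to 4.97 in Rragc +/+ and 4.04 to 4.79 in mutant livers, and so overlapped.

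For rRNA transcription, Polr1a, the largest subunit of RNA polymerase I, was at -0.34 (SE 0.25), with 98.4 ± 19.01 and 77.7 ± 15.2 normalized counts. Ddx21, a helicase that links RNA polymerase I transcription with rRNA processing, was at 230.3, 242.2, 202.3 and 231.7 normalized counts in Rragc +/+ livers. Among the mutants it was at 99.2, 166.2, 249.6 and 179.5, so 3 of 4 were below every Rragc +/+ liver and replicate 3 was above them all. Its difference was -0.45 (SE 0.27, limma adjusted p = 0.846). With Polr1b, all 3 members of this group were below 0, with a median of -0.45.

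**Figure D4:**
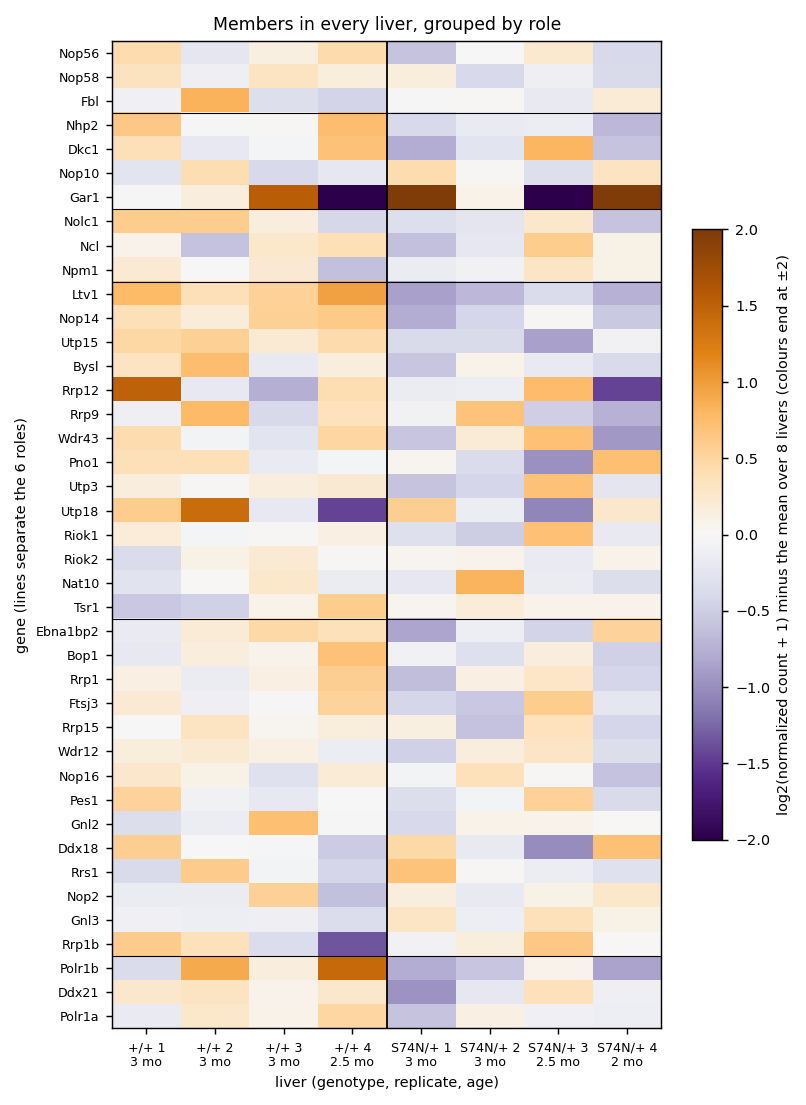
Each tested member (rows, grouped by role) in each liver (columns, with genotype, replicate and age) as log2(normalized count + 1) minus the mean over the 8 livers, with colours ending at ±2. Ltv1 is above its mean in all Rragc +/+ livers and below it in all mutant livers, and the column of mutant replicate 3 differs in colour from the other mutant columns for many members.

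The mutant livers did not lie together. The median deviation of the 40 members from the Rragc +/+ mean was 0.06, 0.04, -0.08 and 0.03 in the Rragc +/+ livers. In the mutant livers it was -0.38, -0.18, -0.01 and -0.35. Mutant replicate 3, which was 2.5 months old, was therefore level with the Rragc +/+ livers, while the other 3 mutants were lower than all of them. The same median over all tested genes lay between 0.01 and 0.03 in every liver.

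Split by age, 31 of the 40 members (77.5%) were below 0 among the 3-month-old mice, 2 mutants against 3 Rragc +/+, with a median of -0.30. Between the 2 livers of 2.5 months, 1 of each genotype, 19 of the 40 (47.5%) were below 0 and the median was 0.03. The shares of all tested genes below 0 were 48% and 48.4%, with medians of 0.02 at both ages. Ddx21 went from -0.80 at 3 months to 0.11 at 2.5 months, Utp3 from -0.62 to 0.47 and Dkc1 from -0.57 to 0.12. Nop14, Utp15 and Nhp2, like Ltv1, were negative at both ages, at -0.97 and -0.60, -0.80 and -1.31, and -0.49 and -0.87. In these genes every mutant liver was below every Rragc +/+ liver, so the negative sign at each age was fixed by that. A test of whether the difference itself changed between 2.5 and 3 months, with 7 livers, had an adjusted p under 0.05 for 0% of all tested genes, and 4 of the 40 members and 484 of all tested genes (4.33%) had an unadjusted limma p under 0.05. With 1 liver per genotype at 2.5 months, age, the single animals and the time of collection cannot be told apart.

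The 2.5-month liver was the highest of its own genotype, in both genotypes, for Ltv1 and for 11 of the 40 other members (27.5%), against 15.1% of all tested genes. These were Nop56, Dkc1, Nhp2, Ncl, Nop14, Utp3, Wdr43, Bop1, Rrp1, Ftsj3 and Polr1b. It was the lowest in both for 4 of the 40 (10%), Fbl, Gar1, Utp18 and Ddx18, against 16% of all tested genes. Among the 13 members with a mean of at least 100 normalized counts, 7 were highest in both and 1 was lowest in both, where the shares of the 4884 tested genes at that level were 22.2% and 16.5%.

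Clock genes moved with these livers. The 7 tested clock genes known to peak near dusk had a mean log2 level of 6.22, 5.82, 6.09 and 7.12 in the Rragc +/+ livers and of 5.90, 5.32, 7.43 and 5.56 in the mutant livers, highest in the 2.5-month liver of each genotype. The 4 that peak near dawn were lowest in those same livers, at 6.69 against 6.90 to 7.50 in Rragc +/+ and at 6.58 against 7.28 to 7.38 in mutant livers. Dbp, an output gene of the clock, was at 57.9 and 126 normalized counts in the 2.5-month livers and between 3.74 and 11.3 in the others. The part of the clock phase in the levels of the ribosome factors was not tested.

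**Figure D5:**
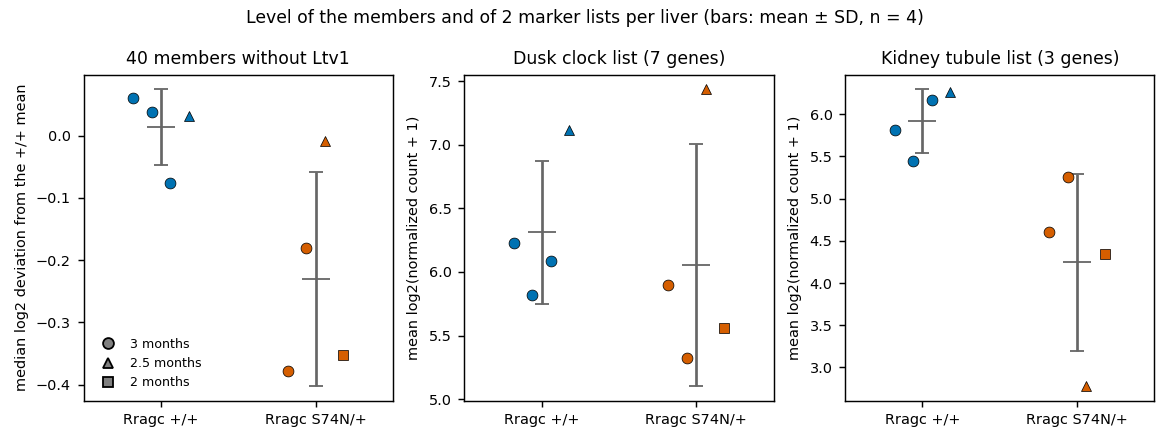
Per-liver levels by genotype with symbols for age and bars for the mean ± SD of 4 livers: the median log2 deviation of the 40 members from the Rragc +/+ mean (left), the mean log2 level of 7 clock genes that peak near dusk (middle) and of 3 kidney tubule genes (right). The mutant liver of 2.5 months is at -0.01 on the left and highest in the middle, at 7.43, and lowest on the right, at 2.78.

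Marker lists of other tissues and cell types were read in the same livers, and some separated the genotypes while others did not. Of the 8 kidney tubule genes looked for, 6 were listed, and their summed normalized count was 226 to 369 in Rragc +/+ and 65.7 to 133 in Rragc S74N/+ livers. This rested on Gpx3 and Kap. Gpx3, a secreted antioxidant enzyme made mainly in kidney, was at 125 to 191 normalized counts in Rragc +/+ and 34.9 to 56.9 in mutant livers (difference -1.95, SE 0.25, limma adjusted p = 0.0411), and Kap was at 67.9 to 164 and 6.69 to 46.2. Slc34a1, Slc12a1 and Cyp4b1 were at 0 in at least 1 liver, and Lrp2 overlapped between genotypes. The mean log2 level of 12 genes with higher expression in male liver was 12.4 to 12.6 in Rragc +/+ and 9.06 to 12.1 in mutant livers. Of 8 genes with higher expression in female liver, only 1 was listed, and its mean was below the minimum for testing. Its normalized counts were 2.80 to 19.8 in Rragc +/+ and 6.69 to 10.7 in mutant livers. The labels do not give the sex of the mice, and its part in these levels was not tested. Kupffer cell, monocyte and B and plasma cell lists had higher mean log2 levels in every mutant liver, at 7.30 to 8.08 against 7.12 to 7.25, 6.49 to 7.23 against 5.48 to 6.30, and 5.95 to 6.68 against 5.17 to 5.71. The B and plasma cell level rested on 2 tested genes of 8 named, and the monocyte level on 4 of 7. Summed counts of the Kupffer cell and monocyte lists overlapped between genotypes. The mean log2 levels of the endothelial list (6.86 to 7.27 in mutant and 6.86 to 7.10 in Rragc +/+ livers), the stellate cell list (7.17 to 7.77 and 7.05 to 7.32), the cholangiocyte list (5.26 to 6.87 and 5.34 to 6.72), the T and NK cell list (1.08 to 4.29 and 2.51 to 3.78), the neutrophil list (3.73 to 5.39 and 3.51 to 6.08) and the acute phase list (7.32 to 9.09 and 7.18 to 7.68) overlapped. The hepatocyte list, with Alb and Apoa1, was at 12.9 to 14.0 in mutant and 12.7 to 13.3 in Rragc +/+ livers, high in all 8 livers. The part of these levels in the differences of the ribosome factors was not tested.

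Some members are also hosts of snoRNAs. By the GENCODE annotation, 7 of the 42 (16.7%) carry 21 snoRNA genes on their own strand, against 269 of 11155 tested genes (2.41%). Nop56 carries 5, Nop58 carries 4, Ncl, Wdr43 and Gnl3 carry 3 each, Tsr1 carries 2 and Dkc1 carries 1. The 7 hosts had a median difference of -0.30, with 5 below 0, and the 33 tested members without a snoRNA, leaving out Ltv1, had a median of -0.28, with 24 below 0. The snoRNAs themselves were not measured.

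The 3′ ends of some members share stretches with other genes, and how reads of such stretches were assigned was not examined. The last 300 bases of the transcript matched another gene at 95% identity or more over at least 75 bases in 7 of the 42. These were Nop58 with 22 other genes, Npm1 and Nop56 with 5 each, Wdr12 with 4, Fbl and Ddx18 with 2 each and Polr1b as given. Gnl2 overlaps another annotated gene, Gm12931, on its own strand. Nop14, Utp15, Nhp2 and Ltv1 had no such match.

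Of 191 further genes named for the assembly pathway, 179 were listed and 167 tested, and none had a limma adjusted p under 0.05, with a smallest value of 0.846. The fitted difference was below 0 in 96 (57.5%) and above 0 in 71 (42.5%), with a median of -0.06, where the shares of all tested genes were 48.7% and 51.3%. Before adjustment 5 (2.99%) were lower and 2 (1.2%) higher with a limma p under 0.05, against 2.8% and 2.37% of all tested genes. The groups did not overlap for 4 lower (2.4%) and 3 higher genes (1.8%), against 1.64% and 1.3% of all tested genes. Whether these genes differed from the 40 members was not tested. The 53 other small subunit factors (34 below 0, 19 above) had a median of -0.11, and the 54 other pre-60S factors (36 and 18) of -0.19. The medians were 0.06 for 12 other RNA polymerase I factors, 0.16 for 8 snoRNP assembly factors, 0.20 for 21 genes of the RNA exosome and rRNA end processing and 0.02 for 12 further snoRNA host genes.

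Within the small subunit list, genes stood on both sides. Dhx37, the helicase that frees the U3 snoRNA from the processome, averaged 55.5 ± 16.9 normalized counts in Rragc +/+ and 19.9 ± 7.86 in Rragc S74N/+ livers (difference -1.49, SE 0.41, limma adjusted p = 0.846, exact permutation p = 0.0286). Nol12, an RNA-binding nucleolar protein, was at 108 ± 35.1 and 61.6 ± 13.4 (-0.78, SE 0.28). Wdr36 and Krr1, both of the processome, were at 40.6 ± 2.88 against 63.0 ± 12.7 (0.60, SE 0.27) and 37.6 ± 8.41 against 53.4 ± 4.77 (0.52, SE 0.28). Snhg6, a snoRNA host gene, was at 5.85 ± 2.21 and 17.1 ± 5.80 (1.41, SE 0.55) on 3 to 28 reads per liver. Its Rragc +/+ mean was below the minimum mean of 10 for testing, so Snhg6 was tested only because its mutant level was higher. That minimum thus favoured a higher difference for Snhg6, and its value is a description. The groups did not overlap for any of these 5 genes, which was part of the rule by which they were named. Each had a limma adjusted p of 0.846.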

How the data were processed

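Liver RNA of 8 mice was sequenced from transcript 3′ ends with a stranded kit (QuantSeq). Alignment by the authors was to GRCm38, using TopHat2 2.0.10, Bowtie 1.0.0 and SAMtools 0.1.19, after FastQC 0.11.7, allowing multiple hits, and counted them with HTSeq 0.6.1 on GENCODE. They deposited 1 table of normalized counts (unit: signal, counts divided by a size factor per library). Whole reads were recovered for 100% of values within 0.001, with size factors of 0.707 to 1.23.

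Members, gene lists and markers were chosen with earlier results of these data known. Genes with a mean of at least 10 were fitted on log2(value + 1) with limma 3.58.1 (R 4.3.3, trend, genotype only), with Benjamini-Hochberg adjustment over all 11174 at 0.05. Single genes also had a two-sided exact permutation test over the 70 labellings. Alternatives were other pseudocounts, filters and scalings, no trend, age, the 3-month-old mice alone, edgeR 4.0.16 and DESeq2 1.42.0 on recovered reads, and leaving out each liver; age as a factor and the interaction with age were added after seeing the data. edgeR called 1 gene and DESeq2 10. In data simulated for this comparison limma recovered 1.54% of genes changed by 1 on the log2 scale, 59.6% at 1.5, 82% at 2 and 98% at 3, among 10924 to 10944 genes. No source ties replicate numbers to litters or batches, and p-values measure the spread between single mice.

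Named were Ltv1, members with an unadjusted p under 0.05 or separate groups, the most-read member of each of 6 roles, and other pathway genes with an adjusted p under 0.05, an unadjusted p under 0.01, or separate groups and a difference of at least 0.5 in size. Promoters are from RefSeq (GRCm38.p6), and positions and snoRNA hosts from GENCODE on GRCm38. Protein sequences were not used here.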

Additional observations from a re-analysis of the deposited data

Results flagged for a closer look

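In groups of 4 livers, a single liver stood apart from the other 3 by Dixon's criterion in 13 of 148 groups of values, where chance gives about 7.4 (1 in 20). Among the members, Tsr1 was at 30.2 normalized counts in Rragc S74N/+ replicate 2 (the other 3 at 27.5 to 27.9), and Nat10 at 66.7 in the same liver (29.4 to 33.4). Gnl2 was at 52.3 in Rragc S74N/+ replicate 1 (70.2 to 73.8), and Gnl3 at 96.2 in Rragc +/+ replicate 4 (113 to 116). Dhx37, of the wider pathway, was at 8.16 in Rragc S74N/+ replicate 4 (23.0 to 24.5).

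The mean log2 level of the pre-60S members was 6.36 in Rragc +/+ replicate 4 (6.50 to 6.51) and 6.56 in Rragc S74N/+ replicate 3 (6.31 to 6.34). These were the 2 livers of 2.5 months, low in one genotype and high in the other by this measure. By the summed normalized count of the same members, both were the highest of their genotype. The sums were 1627 in Rragc +/+ replicate 4 (1477 to 1581) and 1712 in Rragc S74N/+ replicate 3 (1257 to 1403).

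Rragc S74N/+ replicate 3 also stood apart in 4 marker lists, with lower mean log2 levels. Endothelial genes were at 6.86 (7.21 to 7.27) and clock genes that peak near dawn at 6.58 (7.28 to 7.38). Cholangiocyte genes were at 5.26 (6.60 to 6.87) and T and NK cell genes at 1.08 (4.10 to 4.29). These last 2 levels rested on 2 tested genes each, of 7 and 8 named. The summed normalized count of the T and NK cell list was low, at 18.9 in this liver (49.6 to 74.2). The hepatocyte list was at 13.3 in Rragc +/+ replicate 3 (12.7 to 12.8), and the list of genes higher in male liver at 9.06 in Rragc S74N/+ replicate 4, the mouse of 2 months (11.6 to 12.1).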

How the results depend on the processing

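No other member and no further pathway gene was called under any alternative run. The number of all genes called was 1, and became 0 without the trend (603 had a limma p below 0.05 before adjustment), when age entered as a covariate (415) and in 3-month-old mice alone (640), 3 with age as a factor (632), 10 with DESeq2 (675) and 0 to 2 when single livers were left out (312 to 1682). Leaving out Rragc S74N/+ replicate 3 gave the 2. Of the members other than Ltv1, 27 to 32 were below 0 and 8 to 13 above under all alternatives but a minimum mean of 50, where 28 were tested with 23 below and 5 above. Their median of -0.28 ran from -0.30 in 3-month-old mice to -0.19 with edgeR, was -0.16 with age as a factor, and ran from -0.34 to -0.16 without single livers. The median of the further pathway genes ran from -0.13 to -0.03. Ltv1 stayed between -1.43 and -1.20, and its mean was under the minimum of 50.

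The sign of small differences changed for Fbl (-0.00045 with upper-quartile scaling, -0.15 in 3-month-old mice, -0.080 with edgeR and DESeq2, -0.025 with age as a factor), Ddx18 (0.0078 with age as a covariate, 0.089 with edgeR, 0.091 with DESeq2) and Utp18 (0.081 with age as a covariate). In 3-month-old mice it changed for Npm1 (-0.26), Rrp9 (0.21), Nop2 (-0.10), Nop16 (0.13) and Rrp1b (-0.15), and with age as a factor for Riok2 (-0.0091) and Nop16 (0.040). Without single livers, values ran across 0 for Fbl (-0.14 to 0.29), Gar1 (-0.24 to 1.72), Ncl (-0.29 to 0.12), Npm1 (-0.095 to 0.19), Riok2 (-0.11 to 0.083), Utp18 (-0.69 to 0.26), Nat10 (-0.20 to 0.19), Nop16 (-0.28 to 0.042), Pes1 (-0.32 to 0.035), Rrp1b (-0.013 to 0.63), Rrs1 (-0.067 to 0.36), Gnl2 (-0.25 to 0.11) and Ddx18 (-0.24 to 0.33). In all, 41 single-member values changed sign and 747 did not; the cause was not tested. No paired analysis was possible because replicate numbers were given in sample order and mark no shared litter, day or batch. With 4 livers a group, few changes of 1 on the log2 scale can be called.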

Other observations

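The Myc family, whose best-known member raises the transcription of ribosome assembly genes, had 7 tested genes with a median difference of -0.05, of which 4 were below 0 and 3 above. Mxd4, the partner of Max that competes with Myc, was at -0.05 (limma adjusted p = 0.959), Max at 0.07 (limma adjusted p = 0.97) and Mnt at -0.37 (limma adjusted p = 0.846). Myc itself was below the minimum mean for testing, with normalized counts of 0.932, 0, 1.41 and 4.67 in Rragc +/+ livers and of 3.67, 8.0, 5.57 and 6.53 in Rragc S74N/+ livers, so the groups overlapped.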
